A study of Homo sapiens with 4 samples.

Results

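The cells described here are single MCF10A cells in which at least 1 unique molecular identifier (UMI, a tag that marks 1 captured transcript) of IL6, IL11 or IL24 was found. They were chosen by these UMI counts alone, among wells with 2000 to 9000 detected features and under 40% mitochondrial counts. Of 1146 wells that passed, 141 held such a UMI (12.3%, exact binomial 95% interval 10.5% to 14.4%) and 1005 held none. They are called cytokine-positive cells below, and the UMIs of these 3 genes are their definition and not a finding about them.

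MCF10A is an untransformed human breast epithelial line, used here with a histone H2B-GFP label. In each patch, 10000 cells were seeded as a circle on a fibronectin-coated dish and grown for 6 days. The medium, the same for all groups, held 5% donor equine serum, insulin at 10 μg/ml and EGF at 20 ng/ml, with cholera toxin (100 ng/ml) and hydrocortisone (500 ng/ml) added. Cells of 3 regions were phototagged in bands of 1000 to 1500 μm (low-resolution) or of 250 μm (high-resolution), sorted into 384-well plates and sequenced by SORT-seq. Each experiment had 2 plates, and the plate is the replicate. The patches were a culture of 1 cell line with no stroma or immune cells, and the band from which each well came was not analysed here.

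IL6 and IL11 are secreted cytokines that bind receptors of their own and then recruit the shared subunit gp130 (gene IL6ST), which activates JAK kinases and STAT3. IL24 belongs to the IL20 family and uses receptor pairs built from IL20RA or IL22RA1 with IL20RB. In epithelia and fibroblasts, IL6 and the CXC chemokines are transcribed after inflammatory signals such as IL1 and TNF through NF-kB and AP-1, and both cytokine groups are known from wounds and from the secretome of senescent cells.

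By RefSeq, IL6 lies on chromosome 7 (22727200 to 22731998), IL11 on chromosome 19 (55364382 to 55370463) and IL24 on chromosome 1 (206897443 to 206904139) of GRCh38.p14. The bases before their start sites are shown for the 3 genes that define the cells and for the 4 CXC chemokines on which results below turn. IL6 and the CXC chemokines are textbook targets of NF-kB and AP-1. Capitals mark matches to the letters GGANTTTCC (kappa-B-like) or TGANTCA (AP-1-like), searched on both strands in the 250 bases before the start. Each line is in the direction of transcription and ends with the base before the start.
IL6, chr7:22726950-22727199, plus strand: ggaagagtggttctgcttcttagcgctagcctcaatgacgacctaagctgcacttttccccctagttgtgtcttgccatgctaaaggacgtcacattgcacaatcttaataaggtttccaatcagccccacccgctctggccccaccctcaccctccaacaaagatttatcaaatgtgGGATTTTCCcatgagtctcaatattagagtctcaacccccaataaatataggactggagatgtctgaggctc
IL11, chr19:55370464-55370713, minus strand: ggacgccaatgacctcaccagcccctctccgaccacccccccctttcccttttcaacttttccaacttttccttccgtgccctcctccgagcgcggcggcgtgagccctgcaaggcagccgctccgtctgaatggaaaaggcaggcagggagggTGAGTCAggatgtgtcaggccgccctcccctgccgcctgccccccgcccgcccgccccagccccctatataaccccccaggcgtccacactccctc
IL24, chr1:206897193-206897442, plus strand: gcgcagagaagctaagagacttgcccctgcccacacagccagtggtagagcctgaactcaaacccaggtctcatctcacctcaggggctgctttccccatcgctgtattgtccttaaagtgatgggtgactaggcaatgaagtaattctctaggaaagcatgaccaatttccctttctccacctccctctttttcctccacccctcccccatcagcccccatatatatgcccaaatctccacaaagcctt
CXCL1, chr4:73869243-73869392, plus strand: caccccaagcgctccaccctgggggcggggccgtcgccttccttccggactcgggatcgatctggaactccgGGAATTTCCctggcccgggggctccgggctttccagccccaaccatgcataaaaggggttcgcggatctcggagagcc
CXCL2, chr4:74099196-74099345, minus strand: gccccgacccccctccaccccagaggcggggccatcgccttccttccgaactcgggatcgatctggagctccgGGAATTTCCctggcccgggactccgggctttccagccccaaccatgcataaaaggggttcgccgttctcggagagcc
CXCL3, chr4:74038690-74038839, minus strand: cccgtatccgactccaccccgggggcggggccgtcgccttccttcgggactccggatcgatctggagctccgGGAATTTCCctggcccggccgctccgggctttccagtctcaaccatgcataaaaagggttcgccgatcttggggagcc
CXCL8, chr4:73740419-73740568, plus strand: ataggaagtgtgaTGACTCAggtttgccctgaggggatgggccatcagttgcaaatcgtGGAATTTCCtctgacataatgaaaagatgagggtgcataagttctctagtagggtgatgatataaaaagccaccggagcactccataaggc

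The kappa-B-like letters began 72 bases before the start of IL6, 78 before CXCL1, 77 before CXCL2, 78 before CXCL3 and 91 before CXCL8, and they occurred in 1.45% of the 35116 windows of 250 bases. The AP-1-like letters were found 96 bases before IL11 and upstream of the kappa-B-like letters of CXCL8, and in 6.57% of all windows. Neither run of letters was in the window of IL24. A match is a run of letters and no evidence of binding, and no match says only that these letters are not in this window.

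The plates held 11559344 to 14844035 deposited counts outside the spike-in RNA, and the median cell that passed held 30118 to 40893. All plates carry the same 384 well barcodes by design. Low-resolution replicate 1 was on another flow cell than the other 3 plates, by the names of the deposited data. The labelled cell type was checked against marker lists. Summed levels of 10 basal mammary epithelial markers were 4222 to 6746 CPM (counts scaled to a total of 1000000) in cytokine-positive cells of a plate, and those of 10 luminal markers, of which PGR was at 0, were 4323 to 5462 CPM. Fibroblast markers summed to 7.66 to 13.4 CPM with COL3A1, PDGFRB, LUM and THY1 at 0 of the 8 listed. Leukocyte markers summed to 27.6 to 85.4 CPM with CD3E, CD3D and MS4A1 among those at 0 of the 12 listed, and endothelial markers to 15.3 to 26.3 CPM with CDH5 and CLDN5 at 0 of the 6 listed. In the depth-matched cells described below these 3 sums were 2.22 to 10.8, 29.3 to 58.6 and 14.4 to 21.6 CPM. Of the fibroblast, leukocyte and endothelial markers 1, 3 and 1 could be tested, with 0 calls in edgeR and 0 at an unadjusted p under 0.05.

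The cytokine-positive cells were not spread evenly over the plates. There were 15 among 291 cells of low-resolution replicate 1 (5.16%, interval 2.91% to 8.36%) and 17 among 271 of replicate 2 (6.27%, 3.70% to 9.85%). In the high-resolution plates there were 44 among 291 (15.1%, 11.2% to 19.8%) and 65 among 293 (22.2%, 17.6% to 27.4%). Both high-resolution plates thus had a larger share than both low-resolution plates, and their cells were also deeper. With every cell thinned to 10000 UMIs, which left out 16 shallower cells (4, 3, 7 and 2 on the plates in the order above), the shares were 2.44%, 1.49%, 8.10% and 8.93%, in the same grouping. These intervals cover counting error only. Among 222 wells under 2000 features none held a UMI of the 3 genes. At 3 counts of 222 this allows a share of up to 1.35%, and the exact binomial bound is 1.65%.

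IL6, the pleiotropic gp130 cytokine, was found in 27 and 22 cells on the high-resolution plates but in 5 cells on each low-resolution plate. IL24 was found in 5 and 5 cells against 16 and 28. IL11, which shares gp130 with IL6, was found in 8 and 8 cells against 6 and 24, so that the high-resolution replicates lay on either side of the low-resolution ones for IL11 alone. Most detections were at the threshold of the rule: 76 cells held exactly 1 UMI of the 3 genes together and 65 held 2 or more, while all remaining cells held 0. The highest values were 10 UMIs of IL6, 5 of IL11 and 13 of IL24, all in high-resolution replicate 2.

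**Figure D1:**
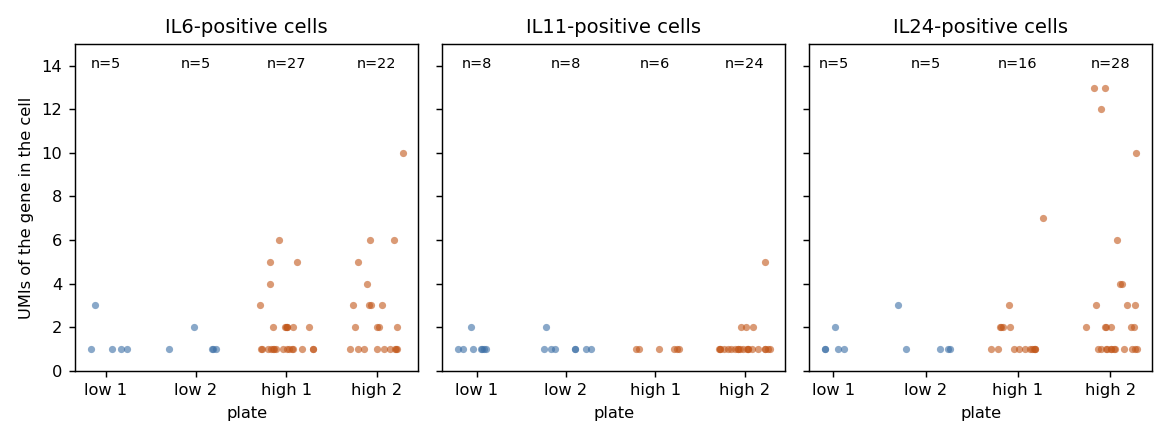
UMIs of IL6, IL11 and IL24 (y axis) in each cell positive for that gene, by plate (x axis; n is the number of positive cells; points are spread sideways at random). Cells with 3 or more UMIs are mostly in the high-resolution plates, and IL24 reaches 13 UMIs in high-resolution replicate 2.

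The 3 genes were mostly found in different cells. Of the 141 cells, 48 held IL6 alone, 42 IL24 alone and 34 IL11 alone, and 17 held more than 1 of the genes, with all 3 in 1 cell. IL11 was found in 6 of 59 IL6-positive cells (10.2%, interval 3.82% to 20.8%) and in 40 of 1087 cells without IL6 (3.68%, 2.64% to 4.98%). All 6 were among the 22 IL6-positive cells of high-resolution replicate 2, with none on the other plates. IL24 was found in 6 of 59 IL6-positive cells (10.2%) and in 48 of 1087 without IL6 (4.42%). On high-resolution replicate 2 it was in 1 of 22 and 27 of 271. IL24 was found in 7 of 46 IL11-positive cells (15.2%, 6.34% to 28.9%) and in 47 of 1100 without IL11 (4.27%, 3.16% to 5.64%). Except where a plate is named, these shares are pooled over plates that differ in both genes and in depth. With 1 UMI in most positive cells a gene can be missed in a cell that expresses it.

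The cytokine-positive cells were deeper than the remaining cells. The median cytokine-positive cell held 42000, 51210, 43790 and 50340 counts (low-resolution replicates 1 and 2, then high-resolution 1 and 2), against 29660, 32370, 34710 and 38480 in the remaining cells. Their median ratio of counts to spike-in counts was also higher on the 4 plates, by 27.8, 41.4, 17.8 and 21.3, and whether depth or RNA content goes with finding a UMI was not tested. Each cytokine-positive cell was therefore paired with 1 cell of its own plate that had none of the 3 genes and nearly the same total count, which was possible for 140 of 141. After matching, the medians differed by at most 120 counts on any plate, and the ratios to spike-in counts by 23.5, 7.5, -11.9 and -1.2 (exact sign-flip p = 0.75). Comparisons between cells below are with these matched cells unless other cells are named. Cells positive for a single cytokine had partners of their own, matched in the same way.

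The median score of the epithelial-to-mesenchymal transition (EMT) was higher in the cytokine-positive cells of each plate. The EMT score, the GSVA score of mesenchymal genes less that of epithelial genes, had a median of 0.52 and 0.69 in the low-resolution plates against -0.15 and -0.29 in the matched cells. In the high-resolution plates it was 0.62 and 0.54 against 0.25 and -0.27. The difference was positive on all 4 plates, with a mean of 0.71 ± 0.26 (SD, n = 4 plates), and the exact 2-sided sign-flip permutation test gave p = 0.125, the smallest that 4 plates allow. The score is not on a linear scale of expression, and its values overlapped: 27 of the 141 cytokine-positive cells were in the lowest tertile of all cells of their experiment, 36 in the middle and 78 in the highest, against 54, 52 and 34 of the 140 matched cells.

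**Figure D2:**
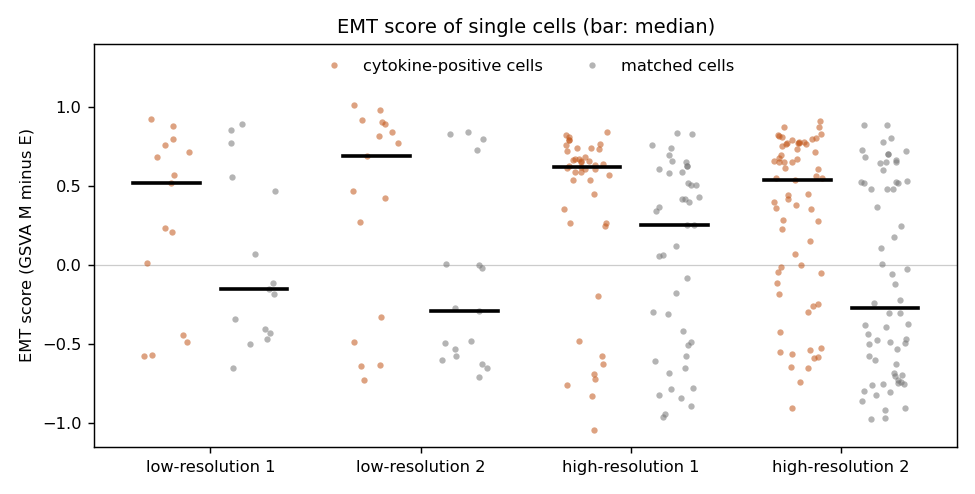
EMT score (y axis, GSVA mesenchymal less epithelial score, no unit) of each cytokine-positive cell and each matched cell by plate; bars are medians. The median of the positive cells is above that of the matched cells on each of the 4 plates, and single cells of both classes cover most of the range.

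The shift in EMT score was not alike for the 3 cytokines. IL6-positive cells were above their own matched cells by 1.03, 0.89, 0.56 and 1.03 (low-resolution replicates 1 and 2, then high-resolution 1 and 2), and IL24-positive cells by 0.87, 0.69, 0.58 and 0.34. Both were positive on 4 of 4 plates, with an exact sign-flip p = 0.125 each. On each low-resolution plate these differences rest on 5 positive and 5 matched cells. For IL11-positive cells the differences were 0.16, 0.08, -1.10 and 1.08 (p = 0.75, exact sign-flip test), and the lowest of these comes from 6 cells. The difference between the cytokines was not tested.

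For other measures of the cell the difference from matched cells varied from plate to plate. The median mitochondrial share was lower by 5.89, 2.45 and 0.89 percentage points on low-resolution replicate 1 and both high-resolution plates and higher by 1.58 on low-resolution replicate 2 (mean -1.91 ± 3.13, SD, n = 4; exact sign-flip p = 0.375). Without low-resolution replicate 1 the mean difference was -0.59. The S phase score differed by a mean of 0.20 ± 0.31 (p = 0.375) and the G2/M score by 0.09 ± 0.30 (p = 0.625), both by the exact sign-flip test.

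To find which genes set these cells apart, the counts of cytokine-positive and of matched cells were summed per plate and compared in edgeR with the plate as a block. The low-resolution plates were pooled to 1 unit, since each had under 20 positive cells. Of 9403 genes tested, 85 were higher and 92 lower at an adjusted p under 0.05, which is 0.904% and 0.978% of the genes (1.88% in either direction). Among the listed genes, 4 of 12 tested IL1 cytokines and CXC chemokines, 7 of 45 mesenchymal genes and 8 of 23 secreted senescence proteins were higher, while 14 of 49 epithelial EMT genes and 3 of 15 squamous genes were lower. Most genes of each list did not pass. IL6, IL11 and IL24, the genes of the rule, were left out. The median over all genes was 0.00 on the log2 scale, with 4670 genes above 0 and 4733 below.

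That count depended on the block and on single plates. Without the block, which ignores that both classes come from the same plates, edgeR called 0 genes, with 249 higher and 270 lower at an unadjusted p under 0.05. All 177 genes had the same sign in it. DESeq2 with the block called 70. Leaving out high-resolution replicate 2 left 23 calls and leaving out low-resolution replicate 2 left 80. In both cases every one of the 177 genes that could be tested kept its sign. These fits share cells with the fit that picked the 177 genes, so kept signs are no independent support. When the partner cells were matched in EMT score as well as in depth, 5 genes were called and the median size of change was 0.14 in place of 0.71 over the 175 of these genes that were tested. With matching in depth and mitochondrial share, 8 genes were called and the median size was 0.38.

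Whichever plate was left out, 14 genes passed each time, and 13 of them were lower in cytokine-positive cells. They encode the claudins CLDN4 and CLDN7 of tight junctions, the desmosome proteins DSG3 and DSP, the adhesion molecule EPCAM, the keratins KRT15 and KRT16, and further KLK10, HSD11B2, FXYD3, S100A14, S100P and ATP6V1B1, with log2 fold changes from -0.76 (DSP) to -1.56 (KLK10). MT1E, a metallothionein that binds zinc and copper, was the one that rose (0.68). No chemokine was among them, and genes were named here after their values were seen.

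Among the chemokines, CXCL1, CXCL2, CXCL3 and CXCL8, which attract neutrophils through CXCR2 and, for CXCL8, also CXCR1, were all higher in the pooled comparison. In CPM, in the order low-resolution 1 and 2 and high-resolution 1 and 2, CXCL1 was at 0, 105.8, 102.9 and 18.3 in cytokine-positive cells against 17.0, 5.55, 39.4 and 12.8 in matched cells. CXCL8 was at 7.74, 92.3, 93.4 and 153.1 against 17.0, 3.33, 75.6 and 49.5. Both were therefore higher in the positive cells of 3 plates and lower in those of low-resolution replicate 1. The same pattern was seen for CXCL2, at 15.5, 179.4, 97.5 and 49.8 against 85.2, 14.4, 41.9 and 23.8 CPM, and for CXCL3, at 6.19, 108.5, 33.0 and 3.49 against 18.5, 1.11, 5.16 and 2.32 CPM. On high-resolution replicate 2 this depended on the partners. All remaining cells there, which were less deep, held 20.5 (CXCL1), 46.9 (CXCL2), 9.02 (CXCL3) and 65.2 CPM (CXCL8). Against them CXCL1 and CXCL3 were lower in positive cells, CXCL2 was nearly equal and CXCL8 was higher. On the other plates the directions against the remaining cells were those against matched cells.

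Among genes that passed with 1 sign in every unit, CXCL3 had the largest rise in edgeR, a log2 fold change of 2.42 ± 0.34 (SE, adjusted p = 0.00485). CXCL1 rose by 1.38 ± 0.26 (adjusted p = 0.0243), CXCL8 by 1.23 ± 0.27 (adjusted p = 0.0450) and CXCL2 by 1.19 ± 0.12 (adjusted p = 0.00182). Single cells weighed heavily here: 1 positive cell held 53.1% of the CXCL3 counts of all positive cells, and the top cell held 23.4% of those of CXCL2, 20.5% of CXCL1 and 13.3% of CXCL8. Among matched cells the top cell held 22.6%, 20.4%, 28% and 17.3% in the same order. Without low-resolution replicate 2 none of the 4 passed, at adjusted p = 0.449, 0.706, 0.512 and 0.191 for CXCL1, CXCL2, CXCL3 and CXCL8, and over the 15 to 19 alternatives that gave a value their adjusted p ran from 7.09e-06 to 0.892. The direction was upward in each of these, which share cells with the fit that picked the genes. CXCL2 passed in 14 of 19, CXCL8 in 12 of 19, CXCL1 in 10 of 19 and CXCL3 in 9 of 15. Counted by cells, a UMI of any of the 4 chemokines was found in 111 of 140 positive cells and 84 of 140 matched cells, and CXCL8 in 81 and 41.

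The lists to which these chemokines belong had few other calls. Of 20 tested NF-kB target genes, 6 rose and 0 fell, and the median log2 fold change was 0.37, with all 20 above 0. Beside the 4 chemokines, the members that rose were IER3, an early-response gene that limits cell death, and NFKBIA, which encodes the inhibitor that retains NF-kB in the cytoplasm. IER3 was at 148.8, 253.6, 403.2 and 418.6 CPM against 171.5, 136.7, 252.6 and 234.7 in matched cells, again higher on all plates but low-resolution replicate 1, and rose by 0.66 ± 0.08 (adjusted p = 0.00321, edgeR). NFKBIA was at 144.1, 177.9, 166.7 and 146.8 CPM against 132.8, 92.1, 114.7 and 117.5, higher on 4 of 4 plates, and rose by 0.45 ± 0.09 (adjusted p = 0.0357).

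Other NF-kB targets did not pass. TNFAIP3, which ends NF-kB signalling, had a log2 fold change of 0.58 (adjusted p = 0.146) and SOD2, the mitochondrial superoxide dismutase, one of 0.35 (adjusted p = 0.0749). Of 12 tested IL1 cytokines and CXC chemokines, 4 rose and 0 fell (median 0.55), the 4 being the chemokines above. IL1A, an alarmin that induces IL6 in neighbouring cells, had a log2 fold change of 0.21 (adjusted p = 0.820) and IL1B one of 1.11 ± 0.45 (adjusted p = 0.303). In cells with at least 2 UMIs of the 3 cytokines the median of the IL1 and CXC list was -0.23.

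**Figure D3:**
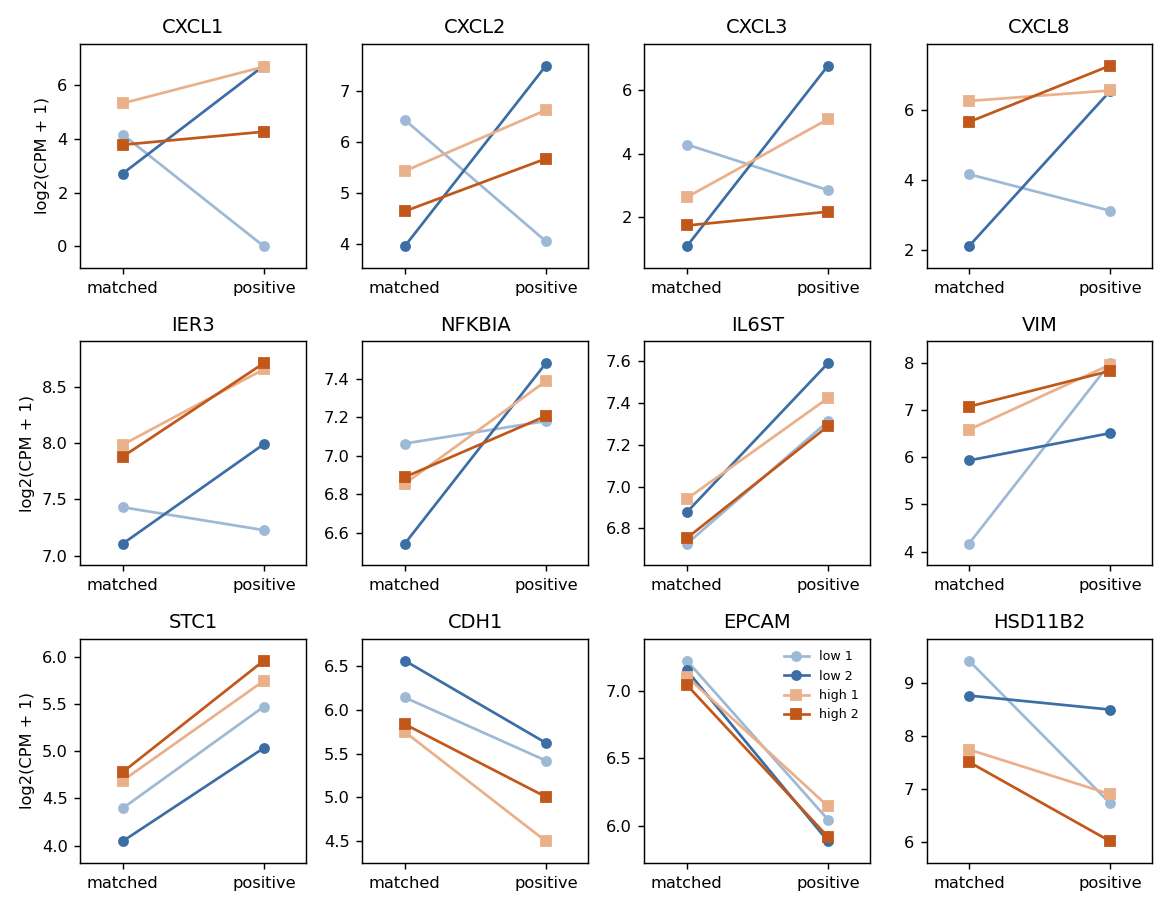
Level on the log2(CPM + 1) scale (y axis, its range set for each gene) of 12 genes in matched and in cytokine-positive cells; each line joins the 2 sums of a plate, circles are low-resolution and squares high-resolution plates. The 4 chemokines fall from matched to positive cells in low-resolution replicate 1 and rise on the other 3 plates, while VIM, STC1 and IL6ST rise and CDH1, EPCAM and HSD11B2 fall on all 4.

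Of the receptors and ligands of the IL6 family, 12 could be tested, and 1 rose and 0 fell (median 0.12). That gene was IL6ST, at 158.0, 191.9, 170.8 and 155.5 CPM in positive cells against 104.9, 116.6, 121.9 and 106.9 in matched cells. The log2 fold change was 0.54 ± 0.09 (adjusted p = 0.0110, edgeR). LIF, another gp130 ligand, had a log2 fold change of 0.38 (adjusted p = 0.172), OSMR, the oncostatin M receptor subunit, one of 0.38 (adjusted p = 0.202), and IL6R, the specific IL6 receptor, one of -0.24 (adjusted p = 0.741). IL11RA and LIFR were under the filter on low counts, with a UMI in 12 and 22 of the 140 positive cells and in 7 and 12 of the matched cells.

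The IL20-type receptor was covered by 1 abundant subunit. IL20RB was found in 104 of 140 positive and 109 of 140 matched cells, with a log2 fold change of 0.01 ± 0.14 (adjusted p = 0.984). Its partners IL20RA and IL22RA1 were found in 1 positive cell each, and in 2 and 0 matched cells. Of 14 STAT3 target genes tested, 1 rose and 1 fell (median 0.05). JUNB, a subunit of AP-1, rose by 0.38 ± 0.08 (adjusted p = 0.0478) and SERPINA3, an acute-phase protease inhibitor, fell by 1.15 on the log2 scale (adjusted p = 0.0357). SOCS3, the feedback inhibitor that STAT3 induces, had a log2 fold change of 0.45 ± 0.34 (adjusted p = 0.632), and STAT3 itself one of -0.28 (adjusted p = 0.323). SOCS2, a STAT5-induced relative of SOCS3, rose by 1.20 ± 0.25 (adjusted p = 0.0400).

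Secreted proteins known from senescent and wounded epithelium were the list with the most calls among secreted factors, with 8 of 23 tested genes higher and 0 lower (median 0.50). Besides CXCL8 these included STC1, SERPINB2, SERPINE2, VEGFC, GDF15 and AREG. STC1, a secreted glycoprotein, was at 43.4, 31.8, 52.6 and 61.1 CPM against 20.1, 15.5, 24.8 and 26.5 (log2 fold change 1.12 ± 0.14, adjusted p = 0.00321).

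Of the growth factors, AREG, a ligand of the EGF receptor, rose by 0.50 ± 0.07 (adjusted p = 0.00387), and EPGN, another such ligand, fell by 0.75 on the log2 scale (adjusted p = 0.0357). SERPINB2, the inhibitor PAI-2, rose by 1.00 ± 0.19 (adjusted p = 0.0243), with 1 cell holding 31.0% of its counts in positive cells. GDF15, a stress-induced TGF-beta relative that is also on the p53 list, rose by 0.70 ± 0.14 (adjusted p = 0.0327). Of 19 tested p53 targets 2 rose and 0 fell.

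Genes of the EMT lists changed in both directions. Of 45 tested mesenchymal genes, 7 rose and 0 fell (median 0.38), and of 49 tested epithelial genes, 14 fell and 1 rose (median -0.55). The gene that rose is GDF15, which the study's epithelial list holds. VIM, the intermediate filament of mesenchymal cells, was at 253.3, 90.0, 247.5 and 225.9 CPM against 17.0, 60.0, 94.8 and 133.4 in matched cells, higher on 4 of 4 plates, with a log2 fold change of 1.21 ± 0.16 (adjusted p = 0.00387). EPCAM, an epithelial adhesion molecule, was at 65.0, 58.1, 69.7 and 59.4 CPM against 148.4, 141.1, 136.6 and 130.9. EPCAM fell by 1.14 on the log2 scale (SE 0.10, adjusted p = 0.00112).

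CDH1, which encodes E-cadherin, was at 41.8, 48.2, 21.6 and 31.1 CPM against 69.5, 93.2, 52.7 and 56.1, and fell by 0.98 (SE 0.14, adjusted p = 0.00518). It had a UMI in 57 of 140 positive and 90 of 140 matched cells. ESRP1, the splicing factor of epithelial isoforms, fell by 1.10 (adjusted p = 0.00917) and ELF3, an epithelial transcription factor, by 1.01 (adjusted p = 0.00239). AKAP12, a scaffold of protein kinase A, rose by 1.32 ± 0.27 (adjusted p = 0.0357) and EMP3, a membrane protein, by 0.66 ± 0.08 (adjusted p = 0.00313). FN1, which encodes fibronectin, was at 767 and 814 CPM against 107 and 262 at low resolution and at 920 and 802 CPM against 690 and 711 at high resolution, and did not pass (log2 fold change 0.77 ± 0.25, adjusted p = 0.189).

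Target genes of YAP and TAZ and of TGF-beta were listed as well. Of 20 tested YAP and TAZ targets 6 rose and 0 fell (median 0.32), and of 22 tested TGF-beta response genes 3 rose and 0 fell (median 0.33). CYR61, a matricellular protein, was at 125.6, 54.8, 217.4 and 137.6 CPM against 46.3, 37.7, 129.2 and 56.7, higher on 4 of 4 plates, and rose by 0.99 ± 0.12 (adjusted p = 0.00279). Its relative CTGF, which is on both lists, rose by 0.71 ± 0.09 (adjusted p = 0.00313), AXL, a receptor tyrosine kinase, by 0.83 ± 0.13 (adjusted p = 0.0103) and NT5E, which encodes CD73, by 0.94 ± 0.20 (adjusted p = 0.0425).

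Few genes of the keratinocyte lists passed. Of 15 tested genes of squamous differentiation 3 fell and 0 rose (median -0.71), with KRT10, KLK10 and KRT80 passing. KRT10, a keratin of suprabasal cells, was at 797.4, 636.2, 331.7 and 168.8 CPM against 880.4, 1444, 676.3 and 582.0, lower on 4 of 4 plates, and fell by 1.21 (SE 0.14, adjusted p = 0.00279). KLK10, a secreted serine protease, fell by 1.56 (adjusted p = 0.00112). All 7 tested luminal markers had a log2 fold change below 0 (median -0.51) and 3 passed, EPCAM, KRT8 at -0.62 (adjusted p = 0.00321) and CD24 at -0.51 (adjusted p = 0.0114). Of 18 tested hemidesmosome and wound keratinocyte genes 2 rose and 2 fell (median 0.11, with 11 above 0). The integrin subunits ITGA5 and ITGB1 rose by 0.61 and 0.43 (adjusted p = 0.0235 and 0.0327, edgeR), and the keratins KRT16 and KRT6A fell.

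Of 9 basal markers 2 fell and 0 rose (median -0.14), KRT5 at -0.37 (adjusted p = 0.00483) and KRT6A at -0.38 (adjusted p = 0.0120). HSD11B2, the enzyme that inactivates cortisol, was outside the lists and among the largest falls, at 105.4, 361.1, 118.7 and 63.6 CPM against 686.3, 434.0, 213.7 and 181.5 (log2 fold change -1.17 ± 0.11, adjusted p = 0.00112). Others were VIPR1, a receptor of vasoactive intestinal peptide, at -2.15 ± 0.47 (adjusted p = 0.0487), and PADI2, which converts arginine to citrulline, at -1.75 ± 0.22 (adjusted p = 0.00321). Further large rises were CD83, an immunoglobulin-family surface protein, at 1.42 ± 0.31 (adjusted p = 0.0442), and FCMR, the IgM receptor, at 1.06 ± 0.22 (adjusted p = 0.0357). By RefSeq the FCMR gene (206903317 to 206923196 on chromosome 1) overlaps the end of IL24, so its counts could hold reads of the gene that defined the cells, and it is uncertain.

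Several programmes had no call. Of all 9403 genes tested, 1247 were at an unadjusted p under 0.05 in edgeR, beside which the counts below are to be read. None of 41 tested S phase genes passed (median 0.19, 37 above 0, with 10 at an unadjusted p under 0.05 in edgeR), and none of 54 G2 and mitosis genes (median -0.16, 45 below 0, with 7 at an unadjusted p under 0.05). Of the interferon-stimulated genes 7 could be tested and of the hypoxia and glycolysis genes 16, also with 0 calls in edgeR and with 1 and 6 at an unadjusted p under 0.05. The AU-rich mRNA decay factors had 0 calls of 12, with 1 at an unadjusted p under 0.05.

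The comparison was repeated with partners that had the same EMT score. Against partners matched in both depth and EMT score, 3 genes were higher and 2 lower of 9355 tested (0.0321% and 0.0214%, together 0.0534%). IER3 rose by 0.62 (adjusted p = 0.0106), IL1R2, a decoy receptor for IL1, by 1.49 (adjusted p = 0.0212) and PI3, which encodes the elastase inhibitor elafin, by 1.81 (adjusted p = 0.0276), while SERPINE2 fell by 0.41 (adjusted p = 0.0212) and PTGDS, a prostaglandin D synthase, fell by 1.88 (adjusted p = 0.0212), all by edgeR. Of the 177 genes above IER3 alone was called again in the same direction. SERPINE2 rose by 0.89 against partners matched in depth alone.

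The lists were not alike under this second matching. The median of the epithelial genes moved from -0.55 to 0.05 and that of the mesenchymal genes from 0.38 to -0.06, which the matching itself brings about, since the score is made from these genes. The median of the secreted senescence proteins moved from 0.50 to 0.04, of the YAP and TAZ targets from 0.32 to -0.01 and of the squamous genes from -0.71 to -0.01. That of the IL1 cytokines and CXC chemokines was 0.55 and 0.50, and that of the NF-kB targets 0.37 and 0.15. The 4 chemokines had log2 fold changes of 1.31 (CXCL1), 0.79 (CXCL2), 1.05 (CXCL3) and 0.64 (CXCL8) there, none of which passed (adjusted p = 0.73, 0.749, 0.892 and 0.623). The median of the S phase genes moved away from 0, from 0.19 to 0.31, with 39 of 41 genes above 0 and 0 calls. That of the p53 targets moved from 0.11 to 0.16. A difference between the lists was not tested.

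**Figure D4:**
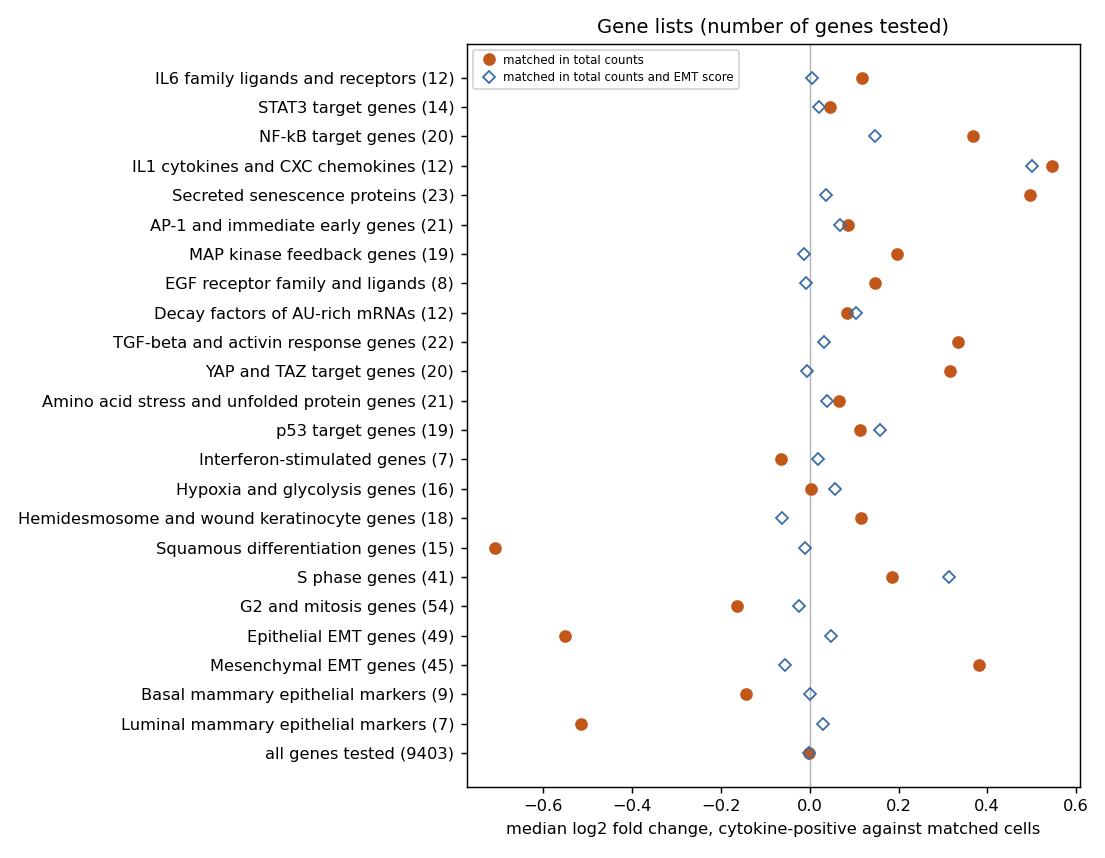
Median log2 fold change (x axis) of each gene list (y axis, number of genes tested in parentheses) for cytokine-positive cells against partners matched in total counts (filled circles) and in total counts and EMT score (open diamonds). Most lists are near 0 in the second comparison, while the IL1 and CXC list is at 0.55 and 0.50 and the S phase list at 0.19 and 0.31.

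The cytokines were then taken 1 at a time. IL6-positive cells could be compared on the 2 high-resolution plates, with 27 and 22 cells and as many matched cells, and 181 genes were higher and 203 lower of 8220 tested (2.20% and 2.47%, together 4.67%). Among genes that passed with 1 sign on both plates, the largest rise was in CXCL2. It was at 115.3 and 91.9 CPM against 14.7 and 14.9, a log2 fold change of 2.77 ± 0.25 (adjusted p = 1.55e-26, edgeR). All remaining cells of these plates, which were less deep, were at 72.4 and 46.9 CPM, so these partners were low in CXCL2. With 2 plates this p rests largely on a spread estimated over all genes. CXCL2 was followed by SLC7A2, a transporter of arginine, at 2.73, ZEB2, a repressor of CDH1, at 2.71, WIPF1, an actin regulator, at 2.59, and LMO2, a transcriptional adaptor, at 2.41. LMO2 was at 8.66 against 6.92 CPM on high-resolution replicate 1 and at 47.9 against 3.13 on replicate 2. ZEB2 and WIPF1 were at 1.56 to 3.13 CPM in matched cells. IL6ST was higher here too (0.68, adjusted p = 0.00108), and so were CXCL1 (1.38), CXCL8 (1.87), VIM (1.42) and TNFAIP3 (1.01, adjusted p = 0.000236).

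Among genes that passed with 1 sign on both plates, PRR15L fell most in IL6-positive cells, with no count in those of either plate. It was followed by CLDN8, a tight junction claudin (-4.11), KLK8, a kallikrein (-3.86), PADI4 (-3.62) and FUT3, a fucosyltransferase of Lewis antigens (-3.58). Of the 5, PRR15L was at 15.6 and 10.2 CPM in matched cells. Without the block 146 genes were called, and with all 4 plates, where the low-resolution plates add 5 cells each, 153 were (57 higher, 96 lower, 0.850% and 1.43% of 6702, together 2.28%). That number was 65 without high-resolution replicate 2 and 73 without high-resolution replicate 1. On the 4 plates, with the same partners on the high-resolution plates, CXCL2 rose by 2.70 ± 0.22 (adjusted p = 2.52e-05) and STC1 by 2.14 ± 0.31 (adjusted p = 0.00188).

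IL24-positive cells were compared on all 4 plates, since only 1 plate had 20 of them. In edgeR 4 genes were higher and 41 lower of 5680 (0.0704% and 0.722%). Those that rose were the metallothioneins MT2A (1.18 ± 0.20, adjusted p = 0.0152) and MT1E (0.88 ± 0.16, adjusted p = 0.0279), the histone gene HIST1H4C (0.95 ± 0.19, adjusted p = 0.0352) and IER3 (0.82 ± 0.16, adjusted p = 0.0352). Among genes that passed with 1 sign on every plate, HSD11B2 had the largest fall. It was at 30.5 and 19.4 CPM in IL24-positive cells of the high-resolution plates against 253.0 and 128.7 in matched cells (-3.15 ± 0.23, adjusted p = 3.61e-05). ALPP, AZGP1, RARRES1 and ELF3 followed at -2.42, -2.15, -2.10 and -2.08. Without high-resolution replicate 1 or 2 there were 8 and 16 calls, all of them falls, so none of the 4 rises passed. Without low-resolution replicate 1 there was 1 rise and 26 falls, and without low-resolution replicate 2 there were 11 and 49.

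IL11-positive cells gave 1 call of 4603 genes (0.0217%). On all 4 plates 117 genes were higher and 79 lower at an unadjusted p under 0.05 in edgeR. Without high-resolution replicate 2 edgeR made 0 calls, with 88 genes higher and 114 lower at an unadjusted p under 0.05. It also made 0 calls without low-resolution replicate 1 (102 higher and 70 lower at that p) and without low-resolution replicate 2 (83 higher and 53 lower).

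Cells with IL6 and no IL24 were also set against cells with IL24 and no IL6, 53 and 48 in all, of which 38 pairs matched in depth. No gene of 4541 passed in edgeR, with 30 higher and 54 lower at an unadjusted p under 0.05, and DESeq2 was not run on this comparison. A change that is called in IL6-positive cells and not in IL24-positive cells is thus not shown to differ between them. Chemokines were found in both classes. CXCL8 was in 44 of 59 IL6-positive, 30 of 54 IL24-positive and 21 of 46 IL11-positive cells. It was in 249 of 1005 remaining cells, which were less deep. These shares pool plates, and CXCL8 was in 10.9% and 18.1% of remaining cells at low resolution but 35.2% and 37.7% at high resolution. On the high-resolution plates it was in 21 of 27 and 18 of 22 IL6-positive cells. There 13 of 16 and 13 of 28 IL24-positive cells and 2 of 6 and 15 of 24 IL11-positive cells held it.

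Whether the cytokine-positive cells differed from matched cells in the same way in both experiments was tested as an interaction on the 4 plates. Of 8614 genes 6 differed (0.0697%), all with a smaller or more negative difference in the high-resolution plates, namely FN1, MT2A, NT5E, PLAU, POSTN and RARRES1. For FN1 the interaction was -1.85 ± 0.26 on the log2 scale (adjusted p = 0.00948, edgeR). The urokinase gene PLAU was at 96.2 and 108.5 CPM against 34.0 and 22.2 at low resolution and at 56.7 and 161 CPM against 52.8 and 155 at high resolution (-1.84 ± 0.29, adjusted p = 0.0248). The number of such genes was 16, 20, 50 and 66 without high-resolution replicate 1 or 2 or low-resolution replicate 1 or 2. Each of these fits leaves 1 plate in an experiment, whose spread is then taken from the other experiment.

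Finally, the level of each cytokine over all cells of a plate was set side by side for the experiments. These are counts of the genes that defined the cells, so they are given as a description with no test. IL6 was at 4.55 and 4.43 CPM in the high-resolution plates against 0.71 and 0.59 in the low-resolution plates, a log2 fold change of 2.80 ± 0.37 in edgeR. IL24 was at 2.45 and 7.02 CPM against 0.61 and 0.69, 2.90 ± 0.55. Of 12437 genes in that fit 778 were higher and 769 lower (6.26% and 6.18%, together 12.4%). IL11 was under the filter on low counts, at 0.52 and 2.29 CPM against 0.91 and 0.89, and with no filter its log2 fold change was 0.73, and -0.73 without high-resolution replicate 2.

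The groups were apart for IL6 and IL24 and overlapped for IL11, and the share of all genes with groups apart was not counted. Without low-resolution replicate 1, which leaves 3 plates of 1 flow cell, IL6 was 2.89 and IL24 2.78 higher on the log2 scale, and without high-resolution replicate 2 IL24 was 1.94 higher. Genes outside the rule were tested in the same fit. LIF was 2.06 ± 0.13 higher in the high-resolution plates (adjusted p = 1.97e-05), CXCL8 1.87 ± 0.20 (adjusted p = 0.000236) and IL1A 1.40 ± 0.19 (adjusted p = 0.000864). CXCL1 (0.77, adjusted p = 0.129), CXCL2 (0.05, adjusted p = 0.887) and CXCL3 (-0.27, adjusted p = 0.613) did not pass. More positive cells on a plate and more mRNA per positive cell cannot be told apart in these sums, and neither can the plate and the makeup of its bands.

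**Figure D5:**
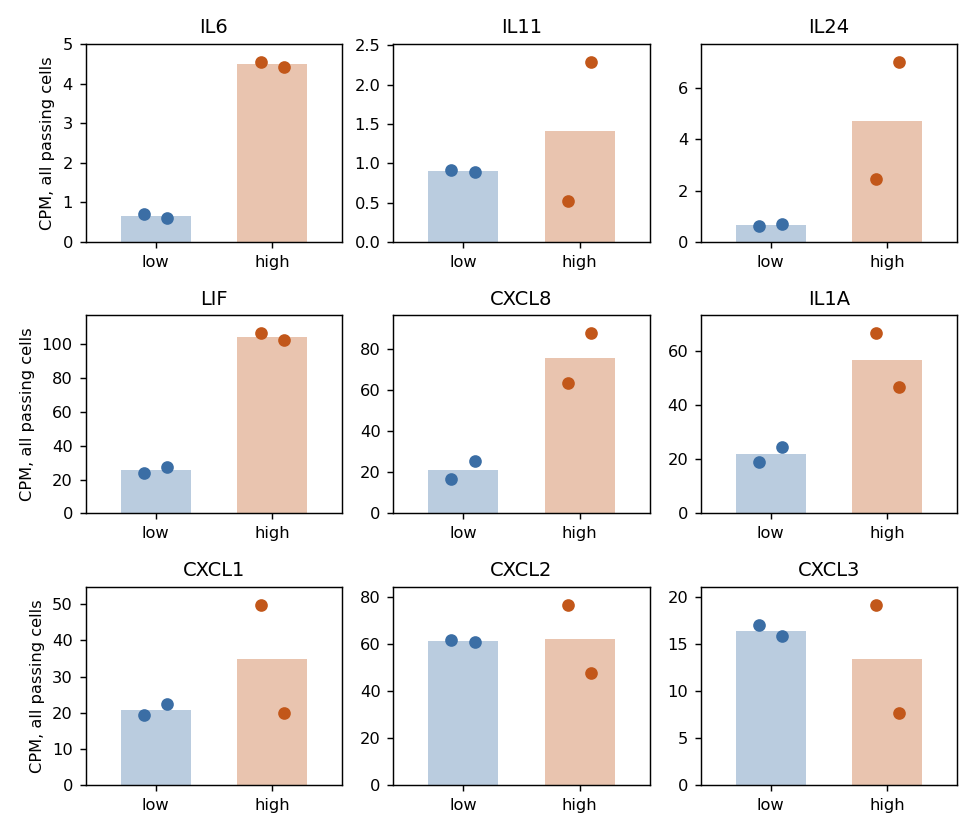
Level in CPM (y axis, from 0, its range set for each gene) summed over all cells that passed, in the low- and high-resolution experiments; points are plates and bars the mean of 2 plates. IL6, IL24, LIF, CXCL8 and IL1A are higher in both high-resolution plates than in both low-resolution plates, while for IL11, CXCL1, CXCL2 and CXCL3 the 2 experiments overlap.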

How the data were processed

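SORT-seq libraries of 4 plates were used. Per the submitters' processing notes the tools were STAR 2.7.3a and Seurat 4 on hg38. The authors deposited expected counts per gene and well, in which UMIs were corrected for tags used more than once. All 7245730 values above 0 turned back to whole UMIs (tolerance 1e-09, 4096 possible tags). Spike-in rows (0.833% to 1.38% of a plate's total) were left out. The cell filter asked for 2000 to 9000 features and a mitochondrial share under 40%, and doublets were not called. The members, gene lists and tests were chosen with earlier results of these data known.

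Cytokine-positive cells were paired within a plate with cells lacking the 3 genes, within 0.1 in log10 total count. Counts were summed per plate and class, rounded, and tested with edgeR 4.0.16 (quasi-likelihood, TMM, filterByExpr, plate as a block, Benjamini-Hochberg adjustment over all genes, threshold 0.05) in R 4.3.3. Here a fold change is on the log2 scale of edgeR and ± is its SE. CPM values are counts scaled to a total of 1000000 per class and plate and are not length-scaled. DESeq2 1.42.0 was an alternative. Medians per cell were compared over the 4 plates by exact sign-flip tests, and Clopper-Pearson intervals of 95% cover counting error only. The EMT score followed the study's method (GSVA), computed with Python 3.11.15 and numpy 2.4.6.

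For IL24, IL11 and IL6 against IL24 fewer than 2 units had 20 cells, so all 4 plates were used unpooled, a choice made after seeing the data. Named were the largest rises and falls with 1 sign in every unit (12 each at most), up to 4 called genes per list, 5 each way per cytokine, the receptors and 4 EMT markers. TNFAIP3, SOD2, IL1A, IL1B, SOCS3, STAT3 and SOCS2 were added after their values were seen, and the plates count as replicates, which the study calls biological replicates.

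On simulated data with 200 of 9405 genes changed, the comparison with matched cells recovered 68% of 2-fold and 96% of 3-fold changes at a dispersion of 0.02, and 4.5% and 53% at 0.1. The common dispersion in the data was 0.00695. Plates of the 2 experiments share replicate numbers, but their deviations did not go together (r = -0.02 across genes), so the numbers were not taken as pairs. Some genes that passed are not reported here.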

Additional observations from a re-analysis of the deposited data

Results flagged for a closer look

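The difference between cytokine-positive and matched cells itself differed between the experiments for 6 genes, by the edgeR interaction test with Benjamini-Hochberg adjustment, and all 6 values are high-resolution less low-resolution on the log2 scale. FN1 (fibronectin) differed by -1.85, NT5E (CD73) by -1.45 and PLAU (urokinase) by -1.84. POSTN, which encodes the matrix protein periostin, differed by -4.22, from 26.3 and 92.2 CPM against 1.54 and 3.33 in the low-resolution plates to 178.9 and 141.5 CPM against 185.2 and 79.6 in the high-resolution plates. A single matched cell held 75.0% of the POSTN counts of the matched low-resolution cells.

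MT2A, a metallothionein, differed by -0.91 (adjusted p = 0.00948), from 3536 and 3359 CPM against 1336 and 1346 to 4615 and 4289 CPM against 3477 and 3034, so that its positive cells were higher on 4 of 4 plates. RARRES1, a retinoid-responsive gene, differed by -1.56 (adjusted p = 0.0436) and was at 204.3 and 137.3 CPM against 193.1 and 123.3 in the low-resolution plates and at 24.8 and 23.9 CPM against 89.6 and 51.5 in the high-resolution plates.

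Of 390 wells outside the limits on features and mitochondrial share, 7 held a UMI of IL6, IL11 or IL24 (1.79%, exact interval 0.72% to 3.66%). None of the 222 wells under 2000 features was among them.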

How the results depend on the processing

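The 177 genes called in cytokine-positive against matched cells became 0 without the replicate block, 70 with DESeq2, 670 against all remaining cells without matching, 389 without the mitochondrial limit, 5 with EMT matching and 8 with mitochondrial matching, and 23 to 133 when a plate was left out. Among those tested, the 177 genes had the same sign under every alternative except EMT matching (38 of 175 opposite) and mitochondrial matching (2 of 175). The alternatives share cells with the fit that picked these genes, so kept signs are no independent support. The number of genes whose difference depended on the experiment, 6, was 16 to 66 without a plate. For IL6-positive cells 384 calls became 146 without the block and 153 on 4 plates, and 65, 73, 132 and 200 when high-resolution replicate 2 or 1 or low-resolution replicate 2 or 1 was left out of these. IL24-positive cells had 8, 16, 27 and 60 calls without high-resolution replicate 1 or 2 or low-resolution replicate 1 or 2, and IL11-positive cells 0 to 1.

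In high- against low-resolution plates IL6 ranged from 2.73 to 2.89, IL24 from 1.94 (without high-resolution replicate 2) to 3.44 and IL11, with no filter, from -0.73 (without high-resolution replicate 2, in a fit added after seeing the data) to 1.39 without a plate. With the replicate block, IL6 was 2.80 and IL24 2.82, and DESeq2 gave no adjusted p for them. Without a plate CXCL1 ran from -0.033 (without high-resolution replicate 1) to 1.30, CXCL2 from -0.33 (the same) to 0.37 and CXCL3 from -1.07 to 0.27 (without high-resolution replicate 2). The mean share of positive cells, 5.71% and 18.6%, was 1.97% and 8.52% at 10000 UMIs and 1.60% and 9.58% with at least 2 UMIs. The EMT difference was 0.62 to 0.82 and the mitochondrial one -3.08 to -0.59 without a plate. With mean z-scores the EMT difference was 0.714, on another scale.

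Single genes turned in sign as follows. With EMT matching AKAP12 was -0.031, CD24 0.14, CTGF -0.064, EMP3 -0.056, EPCAM 0.10, FN1 -0.27, FXYD3 0.021, KRT80 0.31, OSMR -0.062, POSTN -0.034, RARRES1 0.054, S100A14 0.19, SERPINE2 -0.41 and SOD2 -0.058. With mitochondrial matching POSTN was -0.085 and RARRES1 0.026, and RARRES1 was 0.10 in the low-resolution plates. With at least 2 UMIs IL1A was -0.47, IL1B -0.089, IL1R2 -0.38, IL6R 0.017 and IL20RB -0.25. IL20RB was also -0.093 against all remaining cells, -0.077 without the mitochondrial limit, -0.017 with 3 partners a cell, -0.0073 on 4 unpooled plates, -0.064 to 0.11 without a plate (-0.062 without high-resolution replicate 1, -0.064 without low-resolution replicate 2) and -0.17 in the low-resolution plates. Without a plate IL1A ran from -0.37 (without high-resolution replicate 2, and -0.046 without low-resolution replicate 2) to 0.79, PI3 from -0.69 (without high-resolution replicate 2) to 1.72 and SOCS3 from -0.000557 (without high-resolution replicate 1) to 0.45. The causes were not tested. Most positive cells held 1 UMI of the cytokines, which limits every statement on which cells lack them.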
